A study of Mus musculus with 6 samples.

Results

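Described here are 10 transcripts that mark the resident macrophages of bone marrow, measured in sorted long-term haematopoietic stem cells (LT-HSCs) of Hmces knockout and wild type (WT) mice. They are Fcna, C1qa, C1qb, C1qc, Vcam1, Mrc1, Cd68, Emr1 (now Adgre1), Hmox1 and Slc40a1, 10 of the 23235 genes in the deposited table. The list was selected on the FPKM values of Fcna in these same libraries, low in knockout and higher in WT, and filled with known genes of the same cells. The knockout and WT values of the members are therefore a description, without a test. The data are 3 libraries from Hmces knockout mice and 3 from WT mice, all strain C57BL/6, aged 2 months, with bone marrow as the tissue. HMCES protects DNA at abasic sites by attaching to them. The sources used here give neither the nature of the Hmces allele nor the antibody panel, and leave unexplained a 13 bp tag that stands in all 6 titles. Each library came from 1500 sorted cells, amplified by Smart-seq2, and values are FPKM, that is, fragments scaled to the transcript's length and to the library's mapped fragments. The series' design text speaks of duplicates while the labels list 3 libraries of each genotype, and each is counted here as a replicate. Whether each library is from a different mouse is not stated, so the spread behind the p-values may be a technical one between libraries.

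Bone marrow macrophages engulf dying cells and the nuclei that erythroblasts expel, and they recycle the iron of haem. Some form the centre of erythroblastic islands, in which maturing erythroblasts surround a macrophage and are held by adhesion molecules such as VCAM1. Such macrophages make soluble recognition proteins, among them ficolin A and the subunits of C1q, and carry endocytic receptors such as the mannose receptor. Stem cells are not known as a main source of these proteins, and in a sample of sorted cells a lower level from fewer cells of a type cannot be told apart from less RNA per cell.

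Estimated depth was 9300000 to 11200000 fragments in the knockout libraries and 9700000 to 14200000 in the WT libraries. Hmces (8430410A17Rik in the table) had 8.95, 0.222 and 6.95 FPKM in knockout replicates 1 to 3, against 39.5, 45.4 and 41.0 FPKM in WT replicates 1 to 3. On the first principal component knockout replicate 2 scored 67.0 and the other libraries -33.6 to 10.1, so member results that rest on it are given with and without it. Of stem cell transcripts, Hoxb5 stayed under 1 FPKM in every library and Slamf1 was at 1.39 to 5.08 FPKM over the 6 libraries. Ly6a was at 257 to 353 FPKM in knockout and 217 to 256 FPKM in WT libraries, without overlap (log2 fold change 0.42, limma adjusted p = 0.488). Transcripts of surface proteins that are low or absent on adult mouse LT-HSCs were abundant too. Cd34 was at 453 to 496 FPKM in knockout and 468 to 499 FPKM in WT libraries, and Flt3 at 136 to 151 FPKM in knockout and 122 to 152 FPKM in WT libraries. Cd48, chosen after its values were seen, was at 263 to 307 FPKM in knockout and 145 to 219 FPKM in WT libraries, without overlap (log2 fold change 0.65, limma adjusted p = 0.324). The 10 macrophage transcripts together took 0.00339% to 0.0173% of the FPKM sum in knockout libraries and 0.00564% to 0.0281% in WT libraries. All 10 had a mean of at least 1 FPKM over the 6 libraries, the level required for the fit across genes. Fcna, Emr1 and Mrc1 had knockout means under 1 FPKM and met this level through the WT libraries. For Mrc1 it was WT replicate 3 alone, at 6.47 FPKM.

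The label of resident macrophage genes was set against other defining markers of those cells, and 2 of 6 of these, Siglec1 and Mertk, were under 1 FPKM in every library. Siglec1, which encodes the sialoadhesin of island macrophages, was read at 0, 0.806 and 0.225 FPKM in knockout libraries and at 0, 0.356 and 0.0113 FPKM in WT libraries. Mertk, a receptor for dying cells, was listed at 0 in 4 of the 6 libraries and did not exceed 0.249 FPKM. Of 31 other macrophage genes, 9 stayed under 1 FPKM in every library. Cd163, the haemoglobin scavenger receptor gene, was at 1.02, 3.84 and 2.55 FPKM in knockout libraries and 2.66, 4.51 and 2.57 FPKM in WT libraries. Spic, the transcription factor gene of iron-recycling macrophages, was listed at 0, 2.601 and 2.42 FPKM in knockout and at 2.03, 2.504 and 1.65 FPKM in WT libraries.

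Promoter sequence is shown for Fcna and for the C1q genes available, because Fcna and the C1q genes had the most negative log2 fold changes among the members. RefSeq's table for assembly GRCm38.p6 held the promoter of 5 of the 10 members (Fcna, C1qb, C1qc, Mrc1 and Cd68), each from 250 bases before to 50 bases after the gene's start. Capitals mark GAGGAA, read on either strand (TTCCTC on the other strand), the purine-rich core bound by PU.1 and SPI-C, which are ETS-family factors of macrophages. The windows are chr2:25627925-25628224 for Fcna, chr4:136886151-136886450 for C1qb and chr4:136892865-136893164 for C1qc, all on the minus strand and printed 5′ to 3′ along the gene.
Fcna: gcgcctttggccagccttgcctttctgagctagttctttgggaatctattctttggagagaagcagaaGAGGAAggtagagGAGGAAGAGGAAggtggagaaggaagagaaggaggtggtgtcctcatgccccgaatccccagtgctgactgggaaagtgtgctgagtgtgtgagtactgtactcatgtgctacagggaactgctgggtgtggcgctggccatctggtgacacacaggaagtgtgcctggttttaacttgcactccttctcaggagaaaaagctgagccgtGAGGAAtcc
C1qb: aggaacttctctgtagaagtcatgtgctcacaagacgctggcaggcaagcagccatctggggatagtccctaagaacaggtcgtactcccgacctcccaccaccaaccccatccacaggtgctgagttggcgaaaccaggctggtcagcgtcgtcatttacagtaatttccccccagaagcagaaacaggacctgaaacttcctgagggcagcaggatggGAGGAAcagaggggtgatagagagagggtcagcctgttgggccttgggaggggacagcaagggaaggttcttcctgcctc
C1qc: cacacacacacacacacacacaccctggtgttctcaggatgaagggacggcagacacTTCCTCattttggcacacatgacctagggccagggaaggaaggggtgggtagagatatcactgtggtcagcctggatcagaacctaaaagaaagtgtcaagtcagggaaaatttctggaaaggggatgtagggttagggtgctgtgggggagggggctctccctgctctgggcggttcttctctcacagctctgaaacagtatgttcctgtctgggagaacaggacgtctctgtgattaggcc
GAGGAA occurred 4 times in the Fcna window, with first bases at -182, -169, -163 and 42 relative to the start. At least 1 match was present in 28.3% of all 32851 promoters in the table, and 4 or more in 0.125%. C1qb held 1 match at -30 and C1qc 1 on the other strand at -193, while the Mrc1 window held 3 and the Cd68 window 2. Of all promoters, 0.685% held 3 or more and 4.82% held 2 or more. TGCTGA, part of the element bound by MAF-family factors, occurred 2 times in the Fcna window and 1 time in that of C1qb. At least 1 TGCTGA was present in 19.5% of all promoters, and 2 or more in 2.36%. TGANNNNGC, the core of the element bound by NRF2 and BACH1, occurred 0 times in the Fcna window, 2 times in C1qb, 1 time in C1qc and 2 times in Cd68. At least 1 was present in 41.3% of all promoters, and 2 or more in 10.1%. TGANNNNGC can overlap TGCTGA, as in C1qb, where matches start at -131 and -128. A match is a string of letters and says nothing of binding.

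Of the members, Fcna differed most between the genotypes. Fcna encodes ficolin A, a secreted lectin that starts the lectin pathway of complement, and in mice it is made by macrophages of liver, spleen and marrow. It was read at 0, 1.52 and 0 FPKM in knockout replicates 1 to 3, against 4.98, 13.1 and 24.4 FPKM in WT replicates 1 to 3. These correspond to an estimated 0, 20 and 0 fragments in knockout libraries and 57, 202 and 408 in WT libraries. The groups did not overlap, and the WT libraries were far apart among themselves, with replicate 3 the highest. The mean was 0.507 ± 0.877 FPKM in knockout and 14.2 ± 9.74 FPKM in WT cells (SD, n = 3 each), 27.9-fold lower in knockout. At these depths 3 fragments of Fcna correspond to 0.267 FPKM in knockout replicate 1 and 0.274 FPKM in knockout replicate 3, the limit that a count of 0 allows. The log2 fold change on the scale of FPKM + 1 was -3.24 (SE 0.60), and it stayed between -3.80 and -2.75 when each library was left out in turn.

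**Figure D1:**
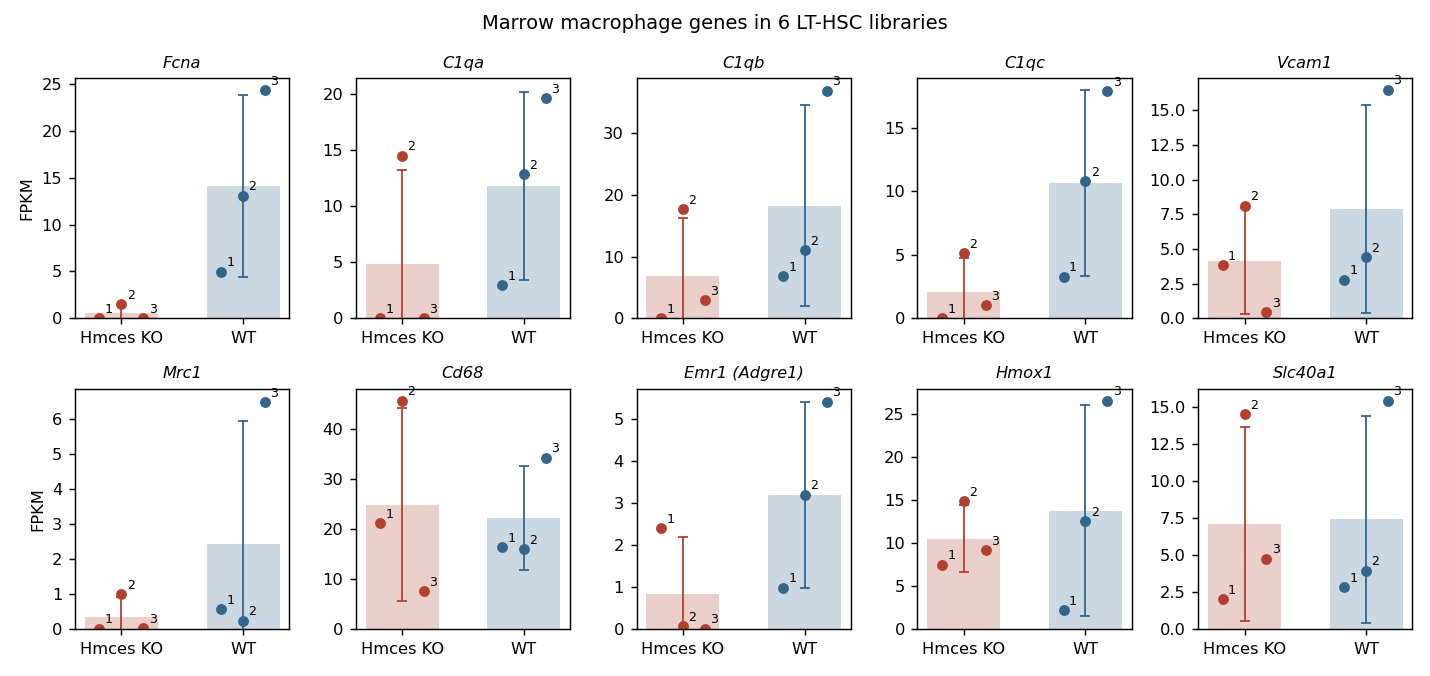
FPKM of the 10 macrophage genes in each library, with knockout libraries in red to the left of WT libraries in blue and replicate numbers beside the points. Bars are means and whiskers SD (n = 3 each), cut at 0. Fcna has 2 knockout libraries at 0 and 1 at 1.52 FPKM, below the lowest WT library at 4.98 FPKM, while the other 9 genes overlap between genotypes.

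The C1q chains form the recognition molecule of the classical complement pathway, and macrophages are their main source. Their genes lie side by side on mouse chromosome 4. C1qa was read at 0, 14.5 and 0 FPKM in knockout libraries and at 2.93, 12.9 and 19.6 FPKM in WT libraries. C1qb was at 0, 17.7 and 2.87 FPKM in knockout libraries and at 6.83, 10.98 and 36.9 FPKM in WT libraries. C1qc was at 0, 5.13 and 1.01 FPKM in knockout libraries and at 3.26, 10.8 and 17.9 FPKM in WT libraries. In all 3 genes knockout replicates 1 and 3 lay below every WT library, whereas knockout replicate 2 was within the WT range, so the groups overlapped. Summed over the chains, the level was 0, 37.3 and 3.88 FPKM in knockout libraries and 13.0, 34.7 and 74.4 FPKM in WT libraries. The mean sum was 13.7 ± 20.5 FPKM in knockout and 40.7 ± 31.2 FPKM in WT cells (SD, n = 3 each). Without knockout replicate 2 the knockout mean was 21.0-fold lower than the WT mean. The log2 fold changes of C1qa, C1qb and C1qc were -2.06 (SE 1.10), -1.87 (SE 1.02) and -2.09 (SE 0.75), and without knockout replicate 2 they were -3.38, -2.96 and -2.79. Leaving out other libraries moved them either way. They were -1.40, -0.84 and -1.49 without knockout replicate 1, and -1.57, -1.22 and -1.62 without WT replicate 3. The values without WT replicate 1 were larger in size, at -2.76, -2.35 and -2.69. Without knockout replicate 3 the log2 fold change of C1qa was -1.40.

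The chains did not keep a single proportion. C1qa, C1qb and C1qc made up 38.9%, 47.4% and 13.8% of their sum in knockout replicate 2. In WT replicates 1, 2 and 3 C1qc made up 25.1%, 31.2% and 24.0%, so its share in knockout replicate 2 was below each of them. In knockout replicate 3, where the chains rested on an estimated 33 fragments in all, C1qa was at 0.

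Set against the C1q chains of the same library, Fcna varied 1.17-fold between WT libraries and was lower in the knockout libraries that held C1q. Fcna FPKM equalled 38.3%, 37.8% and 32.8% of the summed C1q FPKM in WT replicates 1, 2 and 3, although Fcna itself varied between 4.98 and 24.4 FPKM there. In knockout replicate 2 it equalled 4.07%, so the lowest WT share was 8.04-fold higher. That library held an estimated 20 fragments of Fcna beside 370 of the C1q chains, whereas WT replicate 2, at a similar C1q level, held 202 beside 414. In knockout replicate 3 Fcna was at 0, where 3 fragments would have been 7.06% of the C1q sum, also below each WT share. In knockout replicate 1 both were at 0 and no ratio exists. The ratio was chosen after the values were seen and rests on 2 knockout libraries, of which replicate 3 held an estimated 33 C1q fragments. Its numerator, Fcna, is the gene whose low knockout values selected the list, so the ratio is a description.

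Emr1 gave the same pattern in knockout replicate 2 and a different one in knockout replicate 1. Emr1, now Adgre1, encodes F4/80, the surface receptor most used to identify mouse macrophages. It was read at 2.41, 0.0585 and 0 FPKM in knockout libraries and at 0.980, 3.19 and 5.42 FPKM in WT libraries. Relative to the C1q sum it was 0.157% in knockout replicate 2 and 7.52%, 9.22% and 7.28% in WT replicates 1, 2 and 3. The knockout replicate 2 value stood for an estimated 2 fragments. Knockout replicate 1 held an estimated 70 fragments of Emr1 with 0 of Fcna and 0 of the C1q chains, so these transcripts were not always found together. The group means were 0.822 ± 1.37 FPKM in knockout and 3.20 ± 2.22 FPKM in WT cells (SD, n = 3 each), with a log2 fold change of -1.30 (SE 0.63), which was -1.03 without knockout replicate 2 and ran from -1.87 to -0.91 over all libraries left out in turn.

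**Figure D2:**
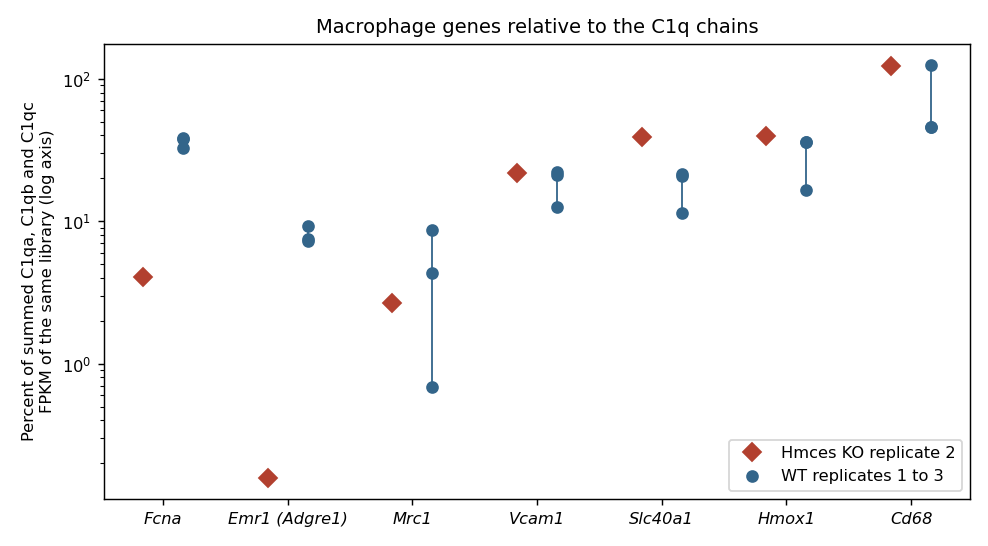
Level of 7 macrophage genes as a percentage of the summed C1qa, C1qb and C1qc FPKM of the same library, on a log axis, in knockout replicate 2 (red diamonds) and in the 3 WT libraries (blue circles, joined by a line). Fcna and Emr1 lie below the WT values, at 4.07% and 0.157%, while Mrc1, Vcam1 and Cd68 lie within them and Slc40a1 and Hmox1 above them.

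The receptors for uptake and adhesion were more variable. Mrc1 encodes the mannose receptor CD206, which clears glycoproteins. It was at 0, 0.992 and 0.0209 FPKM in knockout libraries and at 0.562, 0.237 and 6.47 FPKM in WT libraries. The high WT mean of 2.42 ± 3.51 FPKM came from replicate 3, and without that library the log2 fold change was -0.13 in place of -0.94 (SE 0.71), while without knockout replicate 2 it was -1.27 and without WT replicate 2 -1.43. Vcam1, which encodes the ligand on island macrophages for the integrin VLA-4 of erythroblasts, is also a gene of stroma and endothelium. It was read at 3.83, 8.11 and 0.436 FPKM in knockout libraries and at 2.77, 4.396 and 16.5 FPKM in WT libraries. The groups overlapped, and the log2 fold change of -0.83 (SE 0.77) was -1.43 without knockout replicate 2, -1.29 without WT replicate 1, -0.18 without WT replicate 3 and -0.09 without knockout replicate 3. Cd68, the gene of a lysosomal glycoprotein shared by macrophages and other myeloid cells, was at 21.2, 45.7 and 7.59 FPKM in knockout libraries and at 16.4, 15.95 and 34.3 FPKM in WT libraries. Its highest value was in knockout replicate 2, and the log2 fold change was -0.07 (SE 0.58). It was -0.66 without knockout replicate 2, 0.56 without knockout replicate 3 and 0.27 without WT replicate 3, so its sign depended on single libraries.

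The 2 genes of iron recycling overlapped between the genotypes. Hmox1 encodes haem oxygenase 1, which opens the haem ring and frees its iron. It was read at 7.47, 14.9 and 9.13 FPKM in knockout libraries and at 2.17, 12.5 and 26.6 FPKM in WT libraries. All knockout values lay inside the WT range, and the log2 fold change was 0.07 (SE 0.71). It was -0.19 without knockout replicate 2, -0.80 without WT replicate 1 and 0.76 without WT replicate 3. Slc40a1 encodes ferroportin, the exporter that returns this iron to plasma. It was at 2.01, 14.5 and 4.76 FPKM in knockout libraries and at 2.81, 3.94 and 15.4 FPKM in WT libraries, with overlapping groups and a log2 fold change of -0.07 (SE 0.71). That value was -0.70 without knockout replicate 2 and 0.57 without WT replicate 3, and it kept its sign in 3 of 6 fits with a library left out, so no direction is given for Slc40a1. Both genes were read in knockout replicate 1, where Fcna and the C1q chains were at 0. Relative to the C1q sum in knockout replicate 2, Hmox1 stood at 39.9% and Slc40a1 at 38.9%, above their WT ranges of 16.7% to 36.1% and 11.4% to 21.6%.

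The members also varied together by library. WT replicate 3 held the highest value of 9 of the 10 members, with Cd68 as the exception, where 18.6% of all tested genes had their highest value in that library. Of the knockout libraries, replicate 1 had 5 members at 0, replicate 2 had 0 and replicate 3 had 3, and no WT library had a member at 0. The summed level was 36.9, 123 and 25.8 FPKM in knockout replicates 1 to 3 and 43.7, 88.0 and 203 FPKM in WT replicates 1 to 3. Per length, Cd68 had the highest mean in both groups, at 24.8 ± 19.3 FPKM in knockout and 22.2 ± 10.5 FPKM in WT cells. Mrc1 had the lowest, at 0.338 ± 0.567 FPKM in knockout and 2.42 ± 3.51 FPKM in WT cells (SD, n = 3 each). In neither group was the gap between any 2 neighbours in this order larger than the larger of their SDs. Fcna was in the ninth place in knockout cells and the third in WT cells.

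Across the whole table, limma's test of knockout against WT called 13 of 11532 genes at a Benjamini-Hochberg adjusted p under 0.05, which is 0.113%, with 0.104% higher and 0.00867% lower in knockout. It called 0 of the 10 members, with 2 (Fcna and C1qc) at an unadjusted p under 0.05 against 9.16% of all genes. Hmces itself was not called (log2 fold change -3.23, limma adjusted p = 0.289), so a missing call here does not show equal levels. The groups did not overlap, with knockout lower, for 1 member, Fcna, against 8.34% of all genes. Without knockout replicate 2 this held for 5 members (Fcna, the C1q chains and Mrc1) against 14.6% of all genes, and without WT replicate 1 for 3 against 12.4%. A log2 fold change of -1 or lower was found for 5 members (Fcna, the C1q chains and Emr1) against 1.99% of all genes. Fcna, Emr1 and Mrc1 enter these counts only because their higher WT means carried them past the filter of 1 FPKM. Of the 10 members, 9 had a negative log2 fold change and the median was -1.12, where the median of all tested genes was -0.01. Without WT replicate 3 the median was -0.54 with 7 members negative, and without knockout replicate 2 it was -1.35 with 10 negative. Since the members were chosen with this contrast known, these counts describe the list and support nothing further.

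**Figure D3:**
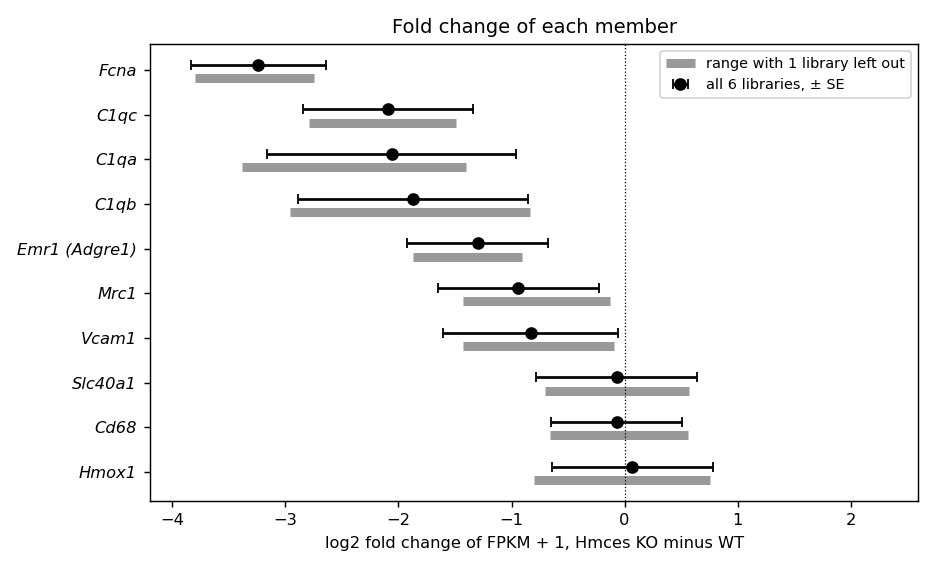
Log2 fold change of FPKM + 1, knockout minus WT, for each member: black points with SE for all 6 libraries, grey bars for the range when each library is left out in turn. Fcna runs from -3.80 to -2.75, Vcam1 comes to -0.09 at its highest, and the ranges of Cd68, Hmox1 and Slc40a1 cross 0.

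Other genes of island macrophages gave no call. Of 31 such genes, 15 reached a mean of 1 FPKM and were tested. Limma called 0 of them, and 2 had an unadjusted p under 0.05, against 9.16% of all genes. Their median log2 fold change was -0.17, with 8 negative and 7 positive. The 4 most abundant were Apoe, Maea, Dnase2a and Sirpa, none of them restricted to macrophages. Apoe, which encodes a lipid carrier, was at 317 ± 16.8 FPKM in knockout and 356 ± 12.1 FPKM in WT cells (SD, n = 3 each; limma adjusted p = 0.636). Dnase2a, the nuclease gene that island macrophages use to digest expelled nuclei, was at 15.6 ± 5.85 and 26.0 ± 9.78 FPKM in knockout and WT cells (adjusted p = 0.585). Maea, an adhesion gene of islands, had a log2 fold change of 0.01, and Sirpa, which encodes a receptor for the signal CD47, one of 0.09. Csf1r, the receptor gene for the macrophage growth factor, was at 3.56, 3.27 and 7.56 FPKM in knockout libraries and 1.57, 5.85 and 7.41 FPKM in WT libraries (adjusted p = 0.987).

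Knockout was below WT without overlap for 3 of these 15 genes (Apoe, Axl and Gas6) and above WT for 1 (Lgals3), against 8.34% and 7.47% of all genes. All but Apoe were chosen after their values were seen. Axl, a receptor for dying cells, was at 2.36, 1.09 and 1.35 FPKM in knockout libraries and 2.44, 4.91 and 4.68 FPKM in WT libraries (limma adjusted p = 0.516). Gas6, which encodes its ligand, was at 2.101, 3.61 and 3.72 FPKM in knockout libraries and 4.13, 6.20 and 5.58 FPKM in WT libraries (adjusted p = 0.592). Lgals3, the galectin-3 gene of many myeloid cells, was at 21.8 ± 2.15 FPKM in knockout and 10.8 ± 3.27 FPKM in WT cells (SD, n = 3 each; adjusted p = 0.341). None of the 4 passed the test.

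Iron and haem genes other than the members gave 1 call, Hp, which stands in the neutrophil list too. Of 32 genes, 26 were tested, 17 had a negative log2 fold change and the median was -0.07. Hp, which encodes the haemoglobin-binding protein haptoglobin and is stored in neutrophil granules, rose to 122 ± 18.8 FPKM in knockout cells, against 30.0 ± 5.79 FPKM in WT cells (SD, n = 3 each; log2 fold change 1.99, SE 0.18, limma adjusted p = 0.0102). The adjusted p of Hp ran up to 0.159 over the alternatives, without knockout replicate 3. The ferritin genes Fth1 and Ftl1, which encode the chains that store iron, were at 1868 ± 54.6 and 1313 ± 60.9 FPKM in knockout cells, against 2229 ± 108 and 1593 ± 177 FPKM in WT cells. For both, every knockout library was below every WT library, as for 8.34% of all genes, and neither passed the test (limma adjusted p = 0.488 and 0.516). Their log2 fold changes of -0.25 and -0.27 were -0.10 and -0.13 after quantile normalization. Hmox2, the constitutive haem oxygenase gene, was at 118 ± 9.03 and 138 ± 9.17 FPKM in knockout and WT cells (adjusted p = 0.606), and Ncoa4, which delivers ferritin for breakdown, at 159 ± 6.49 and 146 ± 14.9 FPKM (adjusted p = 0.765).

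Complement and lectin genes other than Fcna and C1q gave no call. Of 28 genes, 14 were tested and 0 were called by limma, with 7 at an unadjusted p under 0.05 against 9.16% of all genes. The median log2 fold change was 0.37, with 9 positive, and for 7 genes knockout was above WT without overlap, against 7.47% of all genes. Fcnb, chosen after its values were seen, encodes ficolin B, the ficolin of mouse neutrophil precursors. It was read at 34.0, 26.4 and 44.7 FPKM in knockout libraries and at 12.2, 6.63 and 7.76 FPKM in WT libraries, without overlap and in the direction opposite to Fcna. Its log2 fold change was 1.88 (SE 0.28, limma adjusted p = 0.0991), and it passed with small RNA genes left out (0.0169) and with robust estimation (0.0279). Itgb2, which encodes the shared chain of complement receptors CR3 and CR4, was at 36.6 ± 4.45 FPKM in knockout and 19.6 ± 4.41 FPKM in WT cells (SD, n = 3 each; adjusted p = 0.313). The most abundant genes of the list were Calr, which encodes a chaperone that also binds C1q, and C1qbp, which encodes a mitochondrial protein named for binding C1q. Calr was at 487 ± 64.9 and 494 ± 31.0 FPKM in knockout and WT cells (adjusted p = 0.966), and C1qbp at 220.4 ± 43.7 and 274 ± 4.85 FPKM (adjusted p = 0.564). Cr1l, a complement regulator gene, had a log2 fold change of 0.12.

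A list of adhesion genes, which also held Cxcl12, Cxcr4, Epor, Palld and Rb1, gave no call either. Of 20 genes, 16 were tested, 0 were called by limma and 2 had an unadjusted p under 0.05, against 9.16% of all genes. The median log2 fold change was 0.19, with 12 positive. Itgb1, the beta chain of the VCAM1 receptor VLA-4, was at 54.8 ± 6.37 FPKM in knockout and 71.6 ± 9.27 FPKM in WT cells (SD, n = 3 each; limma adjusted p = 0.532). Its partner Itga4, chosen after its values were seen, was at 12.4 ± 2.73 and 8.48 ± 1.93 FPKM in knockout and WT cells (adjusted p = 0.613). Selplg and Icam2, genes of leukocyte rolling and adhesion, had log2 fold changes of 0.24 and 0.30, and neither passed the test. Itgb2 is counted in this list too.

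**Figure D4:**
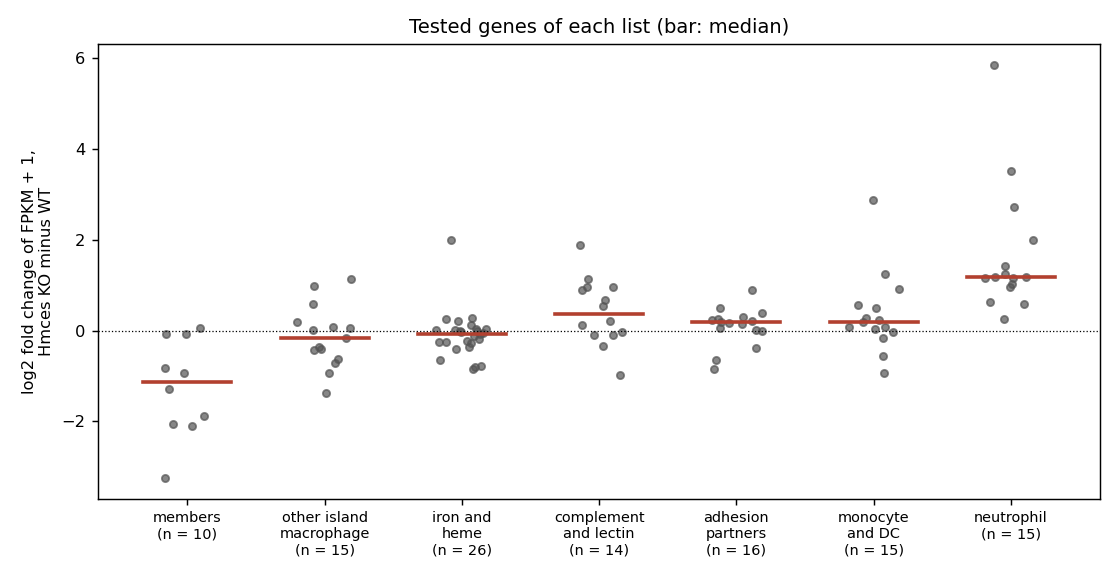
Log2 fold change of FPKM + 1, knockout minus WT, of each tested gene by list, with the median as a red bar and the number tested under each name. The members have a median of -1.12, other island macrophage genes -0.17 and neutrophil genes 1.18. Some genes stand in more than 1 list.

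Of 15 neutrophil markers tested, limma called 3 as higher in knockout, against 0.104% of all genes. They were Mpo, Ctsg and Hp (limma adjusted p = 0.031, 0.049 and 0.0102). The number of calls among all genes ran from 1 to 32 over the alternatives. All 15 had a positive log2 fold change, 13 were above WT in every knockout library against 7.47% of all genes, and their summed level was 18950 to 25400 FPKM in knockout and 6722 to 10550 FPKM in WT libraries. The most abundant were S100a8, at 9853 ± 2397 and 4135 ± 1004 FPKM in knockout and WT cells, and S100a9, at 5284 ± 1011 and 2394 ± 579 FPKM (SD, n = 3 each), and neither passed the test (limma adjusted p = 0.170 for both). Monocyte and dendritic cell genes summed to 1281 to 1687 FPKM in knockout and 973 to 1187 FPKM in WT libraries, with Lyz2 as the largest part. Of 15 such genes tested, 1 (Ly6c2) was above WT in every knockout library, against 7.47% of all genes. Their median log2 fold change was 0.20. Lyz2, the lysozyme gene shared by macrophages, monocytes and neutrophils, was at 890 ± 207 FPKM in knockout and 619 ± 85.6 FPKM in WT cells (SD, n = 3 each; limma adjusted p = 0.506), in the direction opposite to Fcna. Erythroid genes, among which Car2 and Car1 were the most abundant, summed to 762 to 1017 FPKM in knockout and 837 to 929 FPKM in WT libraries. Stromal and endothelial genes, led by Pecam1 and Emcn, summed to 72.6 to 90.7 FPKM in knockout and 58.4 to 82.1 FPKM in WT libraries. Of these 18 genes 12 had a mean below 1 FPKM, so the sum came mainly from the other 6. In every library 9 of the 18 stayed under 1 FPKM, Lum among them at 0 throughout. B and plasma cell genes, led by Xbp1 and Igj (now Jchain), summed to 192 to 989 FPKM in knockout and 200 to 327 FPKM in WT libraries, with Igj at 675 FPKM in knockout replicate 1. The part of any of these cells in the macrophage values was not tested.

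The genes whose profile over the 6 libraries was most like that of Fcna included 2 members. Likeness was measured as the overlap of profiles, each gene's FPKM being taken as a share of its own sum over the 6 libraries, and 10229 genes were ranked. Overlap with Fcna was 90.7% for Pparg, 87.3% for C1qc and 84.3% for Cd5l, against a median of 48.2% over all genes ranked. Pparg, which encodes a nuclear receptor of lipid handling in macrophages and fat cells, was listed at 0 in every knockout library and at 0.525, 2.72 and 3.72 FPKM in WT libraries. Cd5l, which encodes a protein secreted by tissue macrophages, was read at 0, 1.26 and 0.993 FPKM in knockout libraries and at 0, 4.89 and 12.1 FPKM in WT libraries. The next were Amigo3, Ly6g5b, Cd2, Magee1, Cldn5, Bmp2k and Emr1, with overlaps between 80.0% and 83.6%. Of these, Cd2 is a gene of lymphocytes and Cldn5 of endothelium, and both were listed at 0 in every knockout library. Among the members, C1qb overlapped with Fcna by 76.2%, C1qa by 74.4%, Vcam1 by 69.1% and Mrc1 by 68.5%. Hmox1 reached 60.2%, Slc40a1 54.5% and Cd68 50.4%, close to the median of all genes. Only genes with a mean of at least 1 FPKM over the 6 libraries were ranked. Pparg, Cd2 and Cldn5 met this level through WT values alone, none of them above 3.72 FPKM. The genes were picked for this likeness over 6 libraries, so their values are a description.

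**Figure D5:**
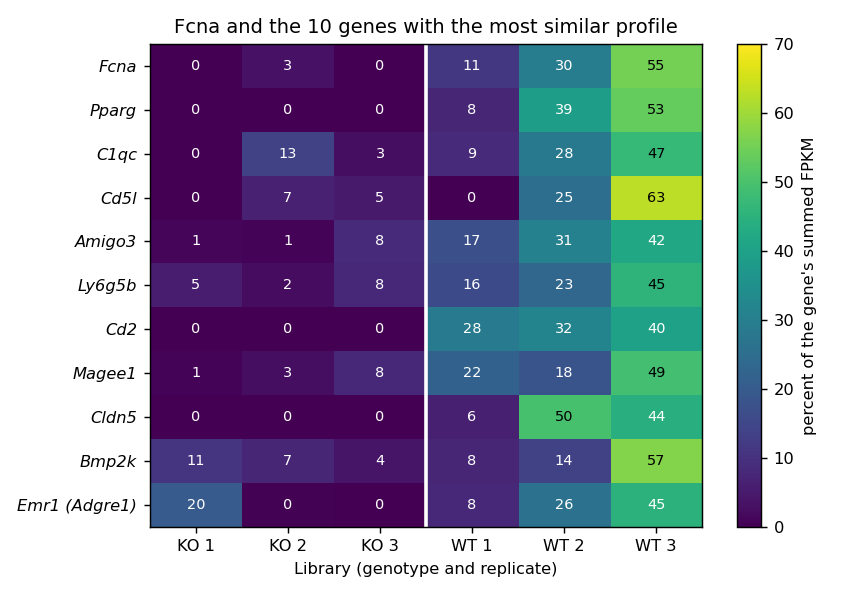
Share of each gene's summed FPKM that fell in each library, in percent, for Fcna and the 10 genes with the greatest overlap, in descending order, with knockout libraries left of WT libraries. In Fcna 55% of the sum falls in WT replicate 3 and 3% in knockout replicate 2, and in Emr1 20% falls in knockout replicate 1.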

How the data were processed

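The authors deposited 1 table of FPKM values for 23235 genes, with 1 column per library, 3 Hmces knockout and 3 WT. Build mm9, Cufflinks 2.2.1 and TopHat2 2.1.1 were used, per the submitters' processing notes. Their options, the annotation and the use of strand were not found in the labels, so overlapping genes and near-identical copies are less certain. Of the symbols, 20652 matched RefSeq (GRCm38.p6) directly, 2340 by synonym and 243 not at all.

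Values were fitted as log2(FPKM + 1) with limma 3.58.1 in R 4.3.3 (mean-variance trend, genotype as the only term, two-sided), for genes with a mean of at least 1 FPKM. The Benjamini-Hochberg adjustment covered the 11532 genes tested, with a threshold of 0.05. Fold changes on this scale understate the change of low genes. The fit was tested on simulated data. An alternative took 0.1 as the pseudocount, and others changed the filter, scaling, variance model, pairing and libraries.

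The table states no depth. It was estimated from the FPKM value that 1 fragment gives, in 844 genes with a single transcript over 1500 nt and a mean below 1 FPKM, assuming fragments of 200 nt. Fragments of each member were estimated from its longest coding transcript. They are amplified copies without molecular identifiers, so limits cover counting error only, and no count test was run.

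The members and lists were chosen with earlier results of these data known. Named were all members; every called gene and the 4 most abundant of each list of other macrophage, iron, complement and adhesion genes; 6 defining macrophage markers; the 2 most abundant of each list of other cell types; the 10 tested genes most like Fcna and the 5 most like the C1q sum in profile, without small RNA and predicted genes; and Hmces. Of the genes so named, 1 is not reported here.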

Additional observations from a re-analysis of the deposited data

How the results depend on the processing

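The number of genes called, 13, was 6 without the variance trend, 1 with all genes kept whatever their level, 20 with robust estimation, 32 without small RNA genes, and 2 to 19 with each library left out. Members called went from 0 to 1 without small RNA genes (Fcna). The iron and haem call, Hp, was lost (0 called) with no filter, without the variance trend, with the replicate block and without knockout replicate 2, knockout replicate 3 or WT replicate 1, so that 0 to 1 were called with a library left out. Complement and lectin genes called were 1, Fcnb, with robust estimation and without small RNA genes. Causes were not tested. With a pseudocount of 0.1 the fold change of Fcna was -5.54. No shared source is stated for same-numbered libraries, and their deviations correlated at 0.080, 0.011 and 0.035. Knockout replicates 1 and 3 correlated best with their own number, and knockout replicate 2 with WT replicate 3 (0.048). With the replicate block 2 genes were called. Fcna and C1q rest on few fragments in knockout replicates 1 and 3, where Fcna had 0 and the C1q chains 0 and 33. Estimated depth there was 9600000 and 9300000 fragments. WT replicate 1, at 9700000, held 57 of Fcna and 115 of the C1q chains. The reason for the low counts was not tested.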

Other observations

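The genes closest in profile to the summed C1q chains were Cd4, Aldh1a7, Vcam1, Klrb1c and Wdr78, with overlaps of 93.5%, 90.0%, 89.2%, 88.6% and 85.0%, against a median of 60.3% over 10227 genes. Cd4, a gene of T cells that some macrophages and dendritic cells also express, was read at 0, 2.25 and 0 FPKM in knockout libraries and at 0.533, 1.44 and 3.44 FPKM in WT libraries. Klrb1c, which encodes the NK1.1 receptor of natural killer cells, was at 0, 1.76 and 0.354 FPKM in knockout libraries and at 0.892, 0.941 and 4.33 FPKM in WT libraries. Aldh1a7, a gene of the aldehyde dehydrogenase family, was at 0.338, 1.92 and 0.0577 FPKM in knockout libraries and at 1.55, 2.41 and 4.68 FPKM in WT libraries. Fcna itself overlapped with the C1q sum by 78.2% and Emr1 by 74.6%.

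Cfp, which encodes properdin, the stabiliser of the alternative complement pathway made by myeloid cells, was at 6.02, 10.5 and 21.1 FPKM in knockout libraries and at 19.6, 21.2 and 28.0 FPKM in WT libraries (limma adjusted p = 0.532). It was chosen after its values were seen, did not pass the test, and had its lowest value in knockout replicate 1, the library with 5 members at 0. In knockout replicate 3, which had 3 members at 0, Cfp was inside the WT range.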
